A study of Mus musculus with 10 samples.

Results

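The 5 Yippee-like genes of the mouse, Ypel1, Ypel2, Ypel3, Ypel4 and Ypel5, were followed across cultured cortical neurons that had or had not received BDNF. The family was chosen by Ypel1, which had been selected on its fall with BDNF in these libraries, and the other 4 members were added by name. All 5 were found among the 21862 genes of the deposited normalized table and the 48526 genes of the raw count table, and all 5 passed the filter on low counts. The neurons came from cortices of wild-type C57BL/6J embryos of stage E16.5 (E16 in the study's design text). In every group they had been given 0.5 µM AraC, an agent that kills dividing cells, and then a lentivirus.

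The groups were H2BE+BDNF (H2BE virus, then BDNF, 2 libraries), H2BE (H2BE virus without BDNF, 2), BDNF (control virus, then BDNF, 3) and Control (control virus without BDNF, 3). The H2BE virus expressed H2BE, a variant of histone H2B, from a constitutive promoter, so the variant was not restricted to any cell type. BDNF is a secreted neurotrophin that signals through the receptor TrkB, and polyA RNA was sequenced 24 h after its addition. Control library 3 exceeded Control library 1 at 0 of 48526 genes, and BDNF library 3 exceeded BDNF library 1 at 0 genes. Their counts also differed from those of library 1 by less than independent counting would give (chi-squared per degree of freedom of 0.854 in BDNF and 0.632 in Control, against 1.69 to 5.10 for libraries 1 and 2, or 2 and 3 under the H2BE virus). Libraries 1 and 3 were therefore counted as 1 sample, which left 2 samples per group. Nothing in the labels says that the samples were separate cultures, so p-values here measure the spread between these samples, which may be technical.

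Proteins of the Yippee family are small and zinc-binding, and they take their name from Yippee of Drosophila. They are conserved from yeast to mammals, and in cultured mammalian cells several of them have been seen at centrosomes and in the nucleus. For this family little is established in neurons. Individual members have been studied in other cells: YPEL3 restrains growth of human cells and is reported to be a target of p53, YPEL5 is a subunit of the CTLH E3 ubiquitin ligase in human cells, and forced expression of mouse Ypel1 gave fibroblasts an epithelial shape.

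The 5 genes lie on 5 chromosomes (GENCODE M21, GRCm38). Ypel1 (ENSMUSG00000022773) spans 17069696 to 17087045 of chromosome 16 on the plus strand. Ypel2 (ENSMUSG00000018427) spans 86936425 to 86993707 of chromosome 11 on the minus strand. Ypel3 (ENSMUSG00000042675) is the most compact, at 126776955 to 126780514 of chromosome 7 on the plus strand. Ypel4 (ENSMUSG00000034059) spans 84734058 to 84738655 of chromosome 2 and Ypel5 (ENSMUSG00000039770) spans 72836453 to 72851195 of chromosome 17, both on the plus strand.

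The coding sequences of Ypel1 to Ypel4 resembled each other closely, and that of Ypel5 stood apart. They measured 357 bases in Ypel1, 360 in Ypel2 and Ypel3, 384 in Ypel4 and 366 in Ypel5. Among Ypel1 to Ypel4 the identity of aligned coding bases ran from 76.1% (Ypel3 and Ypel4) to 82.2% (Ypel2 and Ypel3). Ypel5 shared 57.3% to 62.0% with the others. The longest identical run in any pair was 25 bases, between Ypel1 and Ypel3, and no stretch of 50 transcript bases was shared by any pair of members. A read of 50 bases without mismatches would therefore match no more than 1 member. Ypel1 shared 10.7% of its stretches of 50 bases with genes outside the family, all from its overlap with Ppil2 and from the pseudogene Gm9974, which are taken up with its values below.

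The promoters of Ypel1 and Ypel3, the members that were lower with BDNF, are shown beside that of Ypel4, which was low in every group and holds the AP-1 match. Each window runs from 250 bases before to 50 bases after the transcription start (RefSeq, GRCm38.p6) and is read 5′ to 3′ in the direction of the gene. Capitals mark exact matches, on either strand, to a CRE core (the letters TGACG, or CGTCA on the other strand), an AP-1 site (TGANTCA), a FOXO site (GTAAACA) or a CCAAT box (CCAAT or ATTGG).
Ypel1, chr16:17069889-17070188, plus strand: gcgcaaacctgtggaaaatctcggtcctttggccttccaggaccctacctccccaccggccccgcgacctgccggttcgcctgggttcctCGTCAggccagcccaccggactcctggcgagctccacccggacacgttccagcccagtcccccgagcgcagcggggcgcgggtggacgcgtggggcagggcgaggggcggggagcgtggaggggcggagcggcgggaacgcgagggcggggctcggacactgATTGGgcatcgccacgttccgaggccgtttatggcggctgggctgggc
Ypel3, chr7:126776713-126777012, plus strand: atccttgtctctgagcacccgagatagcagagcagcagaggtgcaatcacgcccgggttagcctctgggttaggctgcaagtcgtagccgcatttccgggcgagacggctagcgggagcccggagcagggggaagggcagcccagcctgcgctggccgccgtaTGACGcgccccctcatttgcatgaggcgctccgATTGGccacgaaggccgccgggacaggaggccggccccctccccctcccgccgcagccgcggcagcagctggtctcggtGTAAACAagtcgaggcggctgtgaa
Ypel4, chr2:84733954-84734253, plus strand: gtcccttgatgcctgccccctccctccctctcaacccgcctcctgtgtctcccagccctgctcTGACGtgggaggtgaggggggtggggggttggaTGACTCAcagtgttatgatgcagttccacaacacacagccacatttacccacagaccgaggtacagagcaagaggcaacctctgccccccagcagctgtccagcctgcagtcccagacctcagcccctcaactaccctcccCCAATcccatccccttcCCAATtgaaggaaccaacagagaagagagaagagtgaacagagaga

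A CRE core began 160 bases upstream of the start in Ypel1, 87 upstream in Ypel3 and 187 upstream in Ypel4, and another match lay downstream of the start in the first of the windows listed for Ypel5. The window of Ypel2 held none. Of all 32851 promoter windows of this length 20.8% held such a core. The AP-1 match of Ypel4 began 154 bases upstream, and 7.81% of windows held one. The FOXO match of Ypel3 lay downstream of its start, and 3.65% of windows held one. Each window of the 5 genes had a CCAAT box, against 37.4% of windows. In Ypel1 and in the second of the windows listed for Ypel5 the only match lay downstream of the start. The Ypel1 window was rich in CpG, with 34 CpG and 72.7% GC, and so was that of Ypel3, with 28 and 67.7%. Members not called with BDNF had such windows too. Ypel2 had 28 CpG and 72.7% GC, and the windows of Ypel5 had 30 and 41 CpG (71.3% and 76.3% GC). The Ypel4 window had 3 CpG and 59.0% GC, and the median over all windows was 7 CpG and 52.7% GC. These matches describe the letters of the windows and are not evidence of binding.

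Library totals ran from 5058074 to 14142545 counts, so that 3 counts, the limit of a count of 0, correspond to 0.212 to 0.593 CPM. This limit covers counting error only, while the 95% intervals given below are those of the edgeR fit and include the spread between samples. The RNA carried the labelled treatments. Arc, an activity-induced neuronal gene, averaged 39.8 ± 8.0 CPM in BDNF against 2.87 ± 0.61 CPM in Control, and 37.6 ± 2.6 CPM in H2BE+BDNF against 1.89 ± 0.71 CPM in H2BE (SD, n = 2 each). H2bc21, the mouse gene of H2BE, averaged 39.1 ± 5.0 CPM in H2BE against 5.27 ± 0.076 CPM in Control, and 33.6 ± 2.2 CPM in H2BE+BDNF against 3.98 ± 0.15 CPM in BDNF. The neuronal markers Rbfox3, Map2, Tubb3 and Snap25 summed to 4170 to 4290 CPM in samples with BDNF and 3720 to 4010 CPM in samples without it, so the cultures were neuronal by these markers.

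Ypel1 was much lower in every sample that had received BDNF. It stood at 12.2 and 10.6 CPM (read counts relative to library size, with libraries scaled by TMM) in the BDNF samples, against 49.0 and 50.8 CPM in Control. Under the H2BE virus it stood at 13.4 and 13.3 CPM in H2BE+BDNF, against 59.6 and 51.6 CPM in H2BE. The groups with and without BDNF were far from overlapping, and the gap was many times the spread within a group. Behind these levels were 146 and 130 reads in BDNF libraries 1 and 2, against 711 and 292 in Control libraries 1 and 2, and 112 and 92 in H2BE+BDNF, against 424 and 261 in H2BE. The log2 fold change was -2.12 (SE 0.11) with the control virus, a level 4.36-fold lower, and -2.08 (SE 0.12) with the H2BE virus, 4.21-fold lower. Of 13452 genes tested, 18 had a lower log2 fold change in BDNF against Control and 30 in H2BE+BDNF against H2BE. Because this fall chose the family, it is given as a description without a test. In bulk RNA, fewer cells that express a gene and less RNA per cell cannot be told apart, which holds for each member.

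Ypel3 was the other member that fell. It stood at 36.2 and 40.5 CPM in BDNF, against 64.1 and 53.2 CPM in Control. In H2BE+BDNF it stood at 35.8 and 29.1 CPM, against 50.8 and 55.6 CPM in H2BE. No sample with BDNF reached the level of any sample without it. Its log2 fold change was -0.59 (SE 0.10, adjusted p = 0.000339, edgeR) in BDNF against Control, 1.51-fold lower, and -0.70 (SE 0.12, adjusted p = 0.000329) in H2BE+BDNF against H2BE, 1.63-fold lower. The 95% interval was -0.81 to -0.38 with the control virus and -0.95 to -0.46 with the H2BE virus. Over 17 alternative settings, which included leaving out each library, the adjusted p was at most 0.0246 in the control-virus comparison and at most 0.00574 in the H2BE-virus comparison. The fall of Ypel3 was shallower than that of Ypel1: 998 genes had a lower log2 fold change in the control-virus comparison and 777 in the H2BE-virus comparison.

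**Figure D1:**
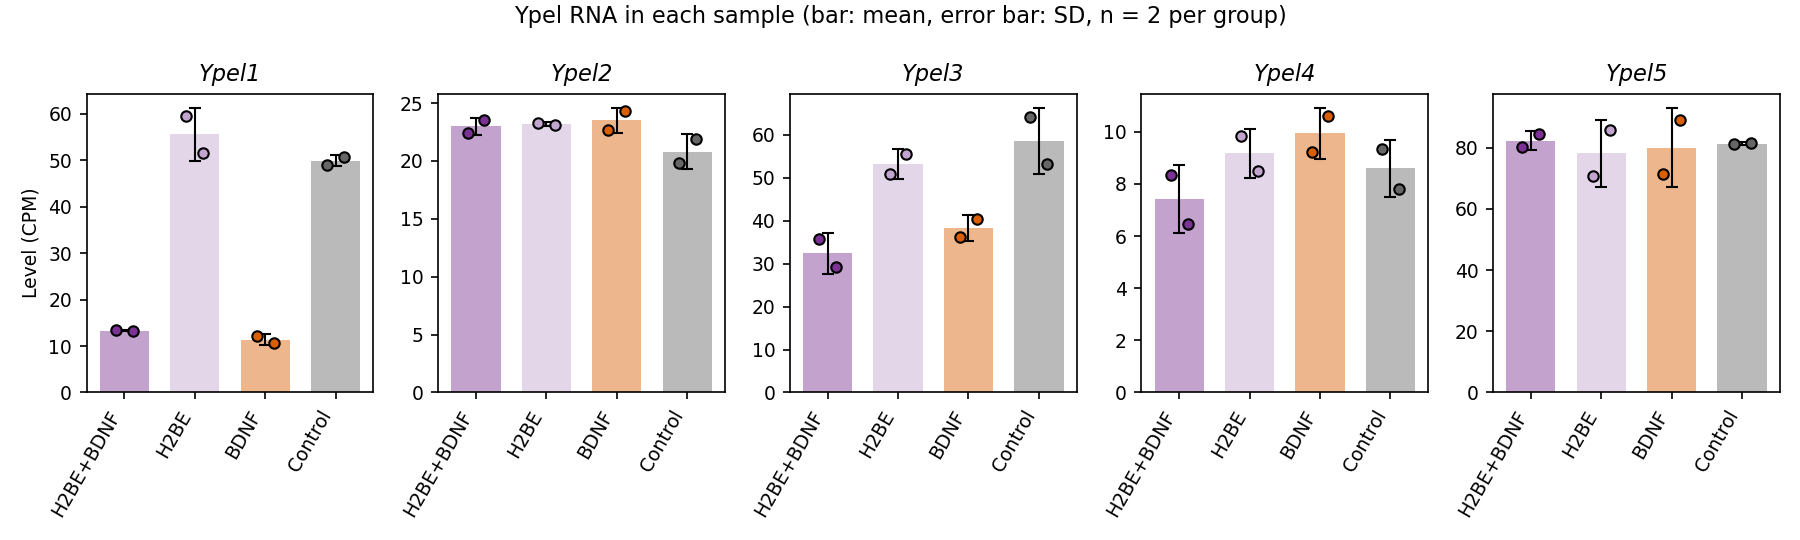
Level of each Yippee-like gene in CPM (vertical axis, each panel with its own scale from 0) in the 4 groups. Points are samples, bars are means and error bars are SD (n = 2); Ypel1 lies at 10.6 to 13.4 CPM in samples with BDNF and at 49.0 to 59.6 CPM in samples without it, and Ypel3 at 29.1 to 40.5 CPM and at 50.8 to 64.1 CPM.

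Ypel5, whose human counterpart belongs to the CTLH ubiquitin ligase, was the most abundant member by reads and was not called in either BDNF comparison. It stood at 71.2 and 88.9 CPM in BDNF and at 81.0 and 81.5 CPM in Control. In H2BE+BDNF it stood at 80.1 and 84.4 CPM, and in H2BE at 70.6 and 85.6 CPM. The groups overlapped in both comparisons. The log2 fold change was -0.01 (95% interval -0.21 to 0.19, adjusted p = 0.945) in BDNF against Control and 0.08 (-0.14 to 0.30, adjusted p = 0.625) in H2BE+BDNF against H2BE. These intervals leave out changes of the size seen for Ypel3.

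Ypel2 stood within a narrow range in all 8 samples. It had 22.7 and 24.3 CPM in BDNF against 19.8 and 21.9 CPM in Control, and 22.4 and 23.5 CPM in H2BE+BDNF against 23.3 and 23.1 CPM in H2BE. The BDNF samples lay just above both Control samples, and under the H2BE virus the groups overlapped. Neither difference passed the test, with log2 fold changes of 0.13 (95% interval -0.11 to 0.37, adjusted p = 0.408) and -0.03 (-0.29 to 0.24, adjusted p = 0.909).

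Ypel4 was the least abundant member, with 43 to 138 reads in the 8 distinct libraries, and its values were accordingly less precise. It stood at 9.24 and 10.6 CPM in BDNF against 9.35 and 7.82 CPM in Control, which overlapped. It stood at 8.35 and 6.48 CPM in H2BE+BDNF against 9.84 and 8.50 CPM in H2BE, which did not. The log2 fold change was 0.10 (95% interval -0.29 to 0.48, adjusted p = 0.731) with the control virus and -0.31 (-0.77 to 0.15, adjusted p = 0.325) with the H2BE virus. A change of the size of that of Ypel3 lies within the second interval and is not excluded by it.

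Among the 4 members added by name, 1 was lower at an adjusted p under 0.05 in BDNF against Control, Ypel3, and 0 were higher. Of all 13452 genes tested 31.4% were called in that comparison, and 14.6% were called lower. Under the H2BE virus Ypel3 was again the 1 of these 4 members called, beside 25.8% of all genes called and 12.3% called lower. With 4 genes the share is not read against the background, and Ypel1, which chose the family, is left out of these counts. Both BDNF comparisons contrast their own samples. They come from 1 fit to the 8 libraries of all 4 groups, which share the estimate of spread, so their p-values are not independent.

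**Figure D2:**
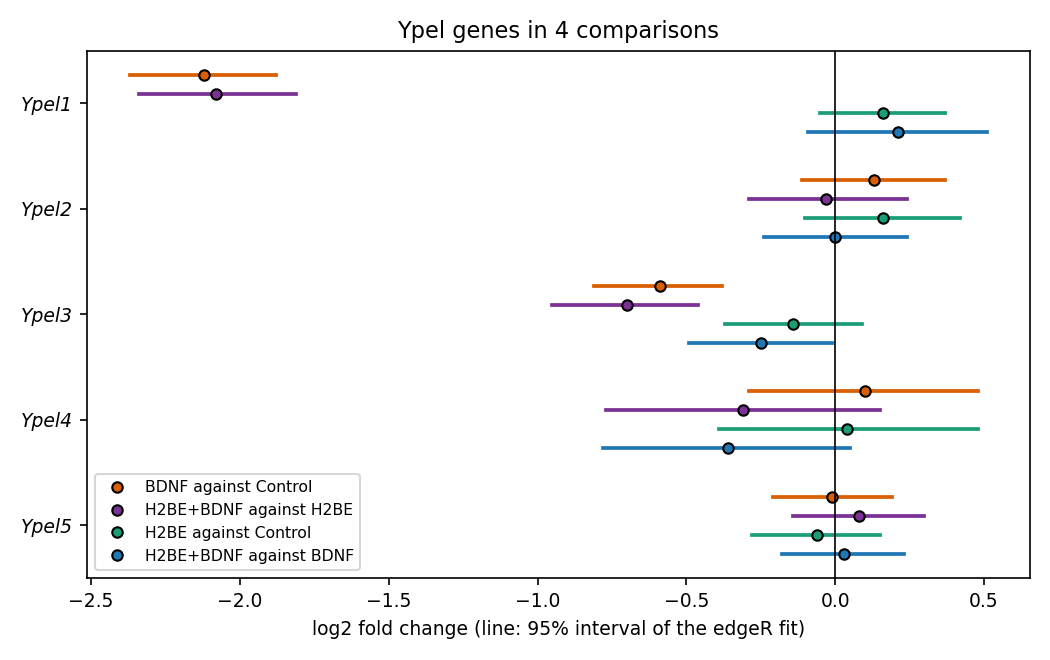
Log2 fold change (horizontal axis) of each Yippee-like gene in the 4 pairwise comparisons, with 95% intervals of the edgeR fit as lines. Ypel1 (-2.12 and -2.08, shown without a test) and Ypel3 (-0.59 and -0.70) lie left of 0 in both BDNF comparisons, and each interval of Ypel2, Ypel4 and Ypel5 includes 0.

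The H2BE virus itself gave no called change in any member. In H2BE against Control, where 2.13% of genes were called, edgeR called 0 of 5 members, and 0 had an unadjusted p under 0.05. Ypel1 stood at 59.6 and 51.6 CPM in H2BE against 49.0 and 50.8 CPM in Control, without overlap, for a log2 fold change of 0.16 (95% interval -0.05 to 0.37, adjusted p = 0.434). Because Ypel1 was selected on its fall with BDNF in these libraries, its intervals and p-values are a description. This holds here, in H2BE+BDNF against BDNF and for the difference of responses below. The log2 fold change was 0.16 for Ypel2 (adjusted p = 0.544), -0.14 for Ypel3 (adjusted p = 0.534), 0.04 for Ypel4 (adjusted p = 0.945) and -0.06 for Ypel5 (adjusted p = 0.797). DESeq2 called 0 members as well, though it gave an adjusted p to Ypel5 alone.

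In H2BE+BDNF against BDNF, where 0.0223% of genes were called, edgeR and DESeq2 each called 0 members. One member had an unadjusted p under 0.05. This was Ypel3, at 35.8 and 29.1 CPM in H2BE+BDNF against 36.2 and 40.5 CPM in BDNF, with a log2 fold change of -0.25 (95% interval -0.49 to -0.01, unadjusted p = 0.0399, adjusted p = 0.409, edgeR). Ypel1 had a log2 fold change of 0.21 (-0.09 to 0.51, adjusted p = 0.593), Ypel2 of 0.00 (-0.24 to 0.24), Ypel4 of -0.36 (-0.78 to 0.05, adjusted p = 0.496) and Ypel5 of 0.03 (-0.18 to 0.23).

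The response to BDNF was then compared between the viruses, as the log2 fold change with the H2BE virus minus that with the control virus. It differed by 0.05 for Ypel1 (95% interval -0.32 to 0.42, adjusted p = 0.924) and by -0.11 for Ypel3 (-0.44 to 0.22, adjusted p = 0.78). The difference was -0.16 for Ypel2 (-0.51 to 0.20), -0.41 for Ypel4 (-1.01 to 0.20, adjusted p = 0.514) and 0.09 for Ypel5 (-0.21 to 0.38). By edgeR 0 of 5 members passed the test, 0 had an unadjusted p under 0.05, and DESeq2, which gave an adjusted p to Ypel5 alone, called 0, beside 1.15% of all genes called by edgeR. The interval for Ypel1 stayed well below the size of its response, but the libraries that selected Ypel1 enter this difference, so it is a description. The interval for Ypel4 is the widest.

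Scaled by gene length, the family was led by Ypel3 and Ypel5. In Control the level per kb of exons was 31.7 ± 4.2 CPM per kb for Ypel3, 19.4 ± 0.099 for Ypel5, 10.8 ± 0.27 for Ypel1, 4.30 ± 0.31 for Ypel2 and 3.29 ± 0.41 for Ypel4 (SD, n = 2). H2BE had the same order, with 28.8 ± 1.8 CPM per kb for Ypel3, 18.7 ± 2.5 for Ypel5, 12 ± 1.2 for Ypel1, 4.79 ± 0.029 for Ypel2 and 3.51 ± 0.36 for Ypel4. With BDNF, Ypel1 stood at or near the end of this order. In BDNF the levels were 20.8 ± 1.6 CPM per kb for Ypel3, 19.1 ± 3.0 for Ypel5, 4.85 ± 0.23 for Ypel2, 3.80 ± 0.38 for Ypel4 and 2.47 ± 0.24 for Ypel1. In H2BE+BDNF they were 19.6 ± 0.74 CPM per kb for Ypel5, 17.6 ± 2.6 for Ypel3, 4.74 ± 0.15 for Ypel2, 2.87 ± 0.017 for Ypel1 and 2.84 ± 0.51 for Ypel4. Within BDNF the levels of Ypel3 and Ypel5 differed by less than the larger of their SDs, and within H2BE+BDNF the same held for Ypel5 and Ypel3 and for Ypel1 and Ypel4.

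The share of Ypel1 in the length-scaled sum of the family was 4.84% in BDNF against 15.5% in Control, and 6.02% in H2BE+BDNF against 17.7% in H2BE. Ypel5 took 37.4% in BDNF against 27.9% in Control, and 41.1% in H2BE+BDNF against 27.6% in H2BE. The sum itself was 51.0 ± 5.0 CPM per kb in BDNF against 69.5 ± 3.9 in Control, and 47.7 ± 2.2 in H2BE+BDNF against 67.7 ± 2.8 in H2BE. The order of neighbouring members depended on the length used. With the longest transcript in place of all exons, Ypel4 lay above Ypel2 in BDNF (5.48 and 4.85 CPM per kb), H2BE (5.06 and 4.79) and Control (4.74 and 4.30). With that length Ypel5 also lay above Ypel3 in BDNF (25.7 and 24.1), and Ypel4 above Ypel1 in H2BE+BDNF (4.09 and 4.01).

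**Figure D3:**
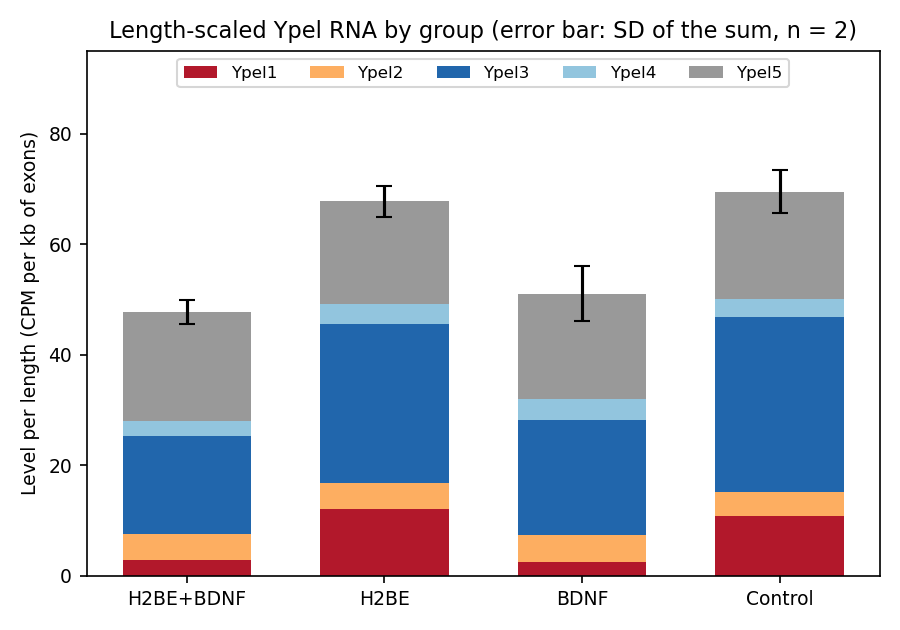
Level per kb of exons (vertical axis, CPM per kb) of the 5 Yippee-like genes, stacked by group, with the SD of the sum (n = 2) as error bars. The sums are 47.7 in H2BE+BDNF, 67.7 in H2BE, 51.0 in BDNF and 69.5 in Control, and the Ypel1 segment is 2.87, 12, 2.47 and 10.8 CPM per kb in that order.

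The 3′ end of Ypel1 overlaps Ppil2, a cyclophilin-type gene on the opposite strand, by 491 bases, and the library kit named in the labels is not stated to keep the strand. Reads from the overlap therefore cannot be told apart. Ppil2 averaged 49.4 ± 0.95 CPM in BDNF against 47.3 ± 1.4 CPM in Control, and 49.7 ± 1.9 CPM in H2BE+BDNF against 52.0 ± 0.23 CPM in H2BE. Its log2 fold changes were 0.04 (adjusted p = 0.762) and -0.07 (adjusted p = 0.581), neither of which passed the test. The pseudogene Gm9974 inside Ypel1 had 5 reads in the 8 distinct libraries together.

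Nearest tested genes beside the members were also read. Mapk3, which encodes the kinase ERK1, lies 11135 bases from Ypel3. Mapk3 fell to 131 ± 5.2 CPM in BDNF, against 171 ± 5.0 CPM in Control (log2 fold change -0.40, adjusted p = 0.00017), and to 140 ± 5.5 CPM in H2BE+BDNF, against 179 ± 12 CPM in H2BE (-0.36, adjusted p = 0.000889). Ppp4c, a phosphatase gene on the other side of Ypel3, had log2 fold changes of -0.12 (adjusted p = 0.441) and 0.24 (adjusted p = 0.172). Beside Ypel1, 2610318N02Rik had a log2 fold change of 1.07 (adjusted p = 0.0448) in BDNF against Control, which was lost without any 1 of the 8 libraries, and 0.04 (adjusted p = 0.962) in H2BE+BDNF against H2BE. Among all genes tested, 31.4% were called in BDNF against Control and 25.8% in H2BE+BDNF against H2BE. Of the 6 neighbours of Ypel2, Ypel4 and Ypel5, Gdpd1, beside Ypel2, was the 1 called in either BDNF comparison, with a log2 fold change of -0.23 in BDNF against Control (adjusted p = 0.0198). That call was lost without BDNF replicate 2, without either Control replicate, with DESeq2 and with the length correction.

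Genes of the CTLH complex, the ubiquitin ligase that holds YPEL5 in human cells, were read in both BDNF comparisons. With 10 genes the share called is not read against the background. Of 10 listed genes besides Ypel5, all tested, 1 was higher and 0 were lower in BDNF against Control, beside 31.4% of all genes called. Their median log2 fold change was -0.01, and it was -0.01 over all genes tested. The gene called was Wdr26, a scaffold of the complex, at 221 ± 2.2 CPM in BDNF against 183 ± 9.9 CPM in Control (log2 fold change 0.24, adjusted p = 0.00613). Without Control replicate 2, and with the length correction, that call was lost and 0 genes were called, and without BDNF replicate 2 the list had 2 called genes. Under the H2BE virus 1 of the 10 genes was higher with BDNF and 0 were lower, beside 25.8% of all genes called. That gene was Maea, a catalytic RING subunit of the complex, at 134 ± 4.2 CPM in H2BE+BDNF against 117 ± 6.5 CPM in H2BE (0.19, adjusted p = 0.0475). The call of Maea was lost under 13 of 17 alternatives, DESeq2 and the loss of any 1 library of the Control, H2BE or H2BE+BDNF groups among them. The summed level of the 10 genes was 942 to 967 CPM in BDNF against 909 to 925 CPM in Control, and 940 to 941 CPM in H2BE+BDNF against 906 to 908 CPM in H2BE.

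Targets of p53, the list to which human YPEL3 belongs, moved in both directions with BDNF. Of 20 listed genes besides Ypel3, 19 were tested. In BDNF against Control 8 were higher and 6 were lower, which is 73.7% of those tested beside 31.4% of all genes, with a median log2 fold change of 0.10 (-0.01 over all genes). Under the H2BE virus 6 were higher with BDNF and 3 were lower, 47.4% beside 25.8%, with a median of 0.18 (0.00 over all genes). Plk2, a polo-like kinase, rose to 224 ± 1.9 CPM in BDNF, against 126 ± 3.2 CPM in Control (0.81, adjusted p = 2.58e-08). Cdkn1a, the cell-cycle inhibitor p21, rose to 222 ± 1.5 CPM in BDNF, against 112 ± 19 CPM in Control (0.98, adjusted p = 1.13e-07). Sesn2 rose and its relative Sesn1, both stress-response regulators of growth signalling, fell: Sesn2 averaged 102 ± 2.1 CPM in BDNF against 54.0 ± 2.2 CPM in Control (0.96, adjusted p = 2.71e-07), and Sesn1 20.7 ± 2.9 CPM against 33.6 ± 1.1 CPM (-0.72, adjusted p = 0.000135). The log2 fold change of Ypel3 had the sign of the 6 lower genes, Sesn1 among them. It had the opposite sign to the 8 higher genes, among them Plk2, Cdkn1a and Sesn2.

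With the H2BE virus Cdkn1a (1.17, adjusted p = 7.18e-08), Plk2 (0.81, adjusted p = 9.06e-08), Sesn1 (-0.96, adjusted p = 3.64e-05) and Trp53inp1, an autophagy and cell-death regulator (-0.73, adjusted p = 0.00116), had the smallest p-values of the list. The counts of this list depended on the tool and on single libraries. DESeq2 called 5 genes in each BDNF comparison. In BDNF against Control 6 were called without Control replicate 1, 7 without Control replicate 2 and 8 without BDNF replicate 2. Under the H2BE virus 4 were called without H2BE replicate 2. The response to BDNF differed between the viruses for 1 gene of the list, Sesn2 (-0.54, adjusted p = 0.0449), where 3 genes were called without BDNF replicate 1 and 0 with the length correction or without any 1 of the Control, H2BE or H2BE+BDNF libraries.

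**Figure D4:**
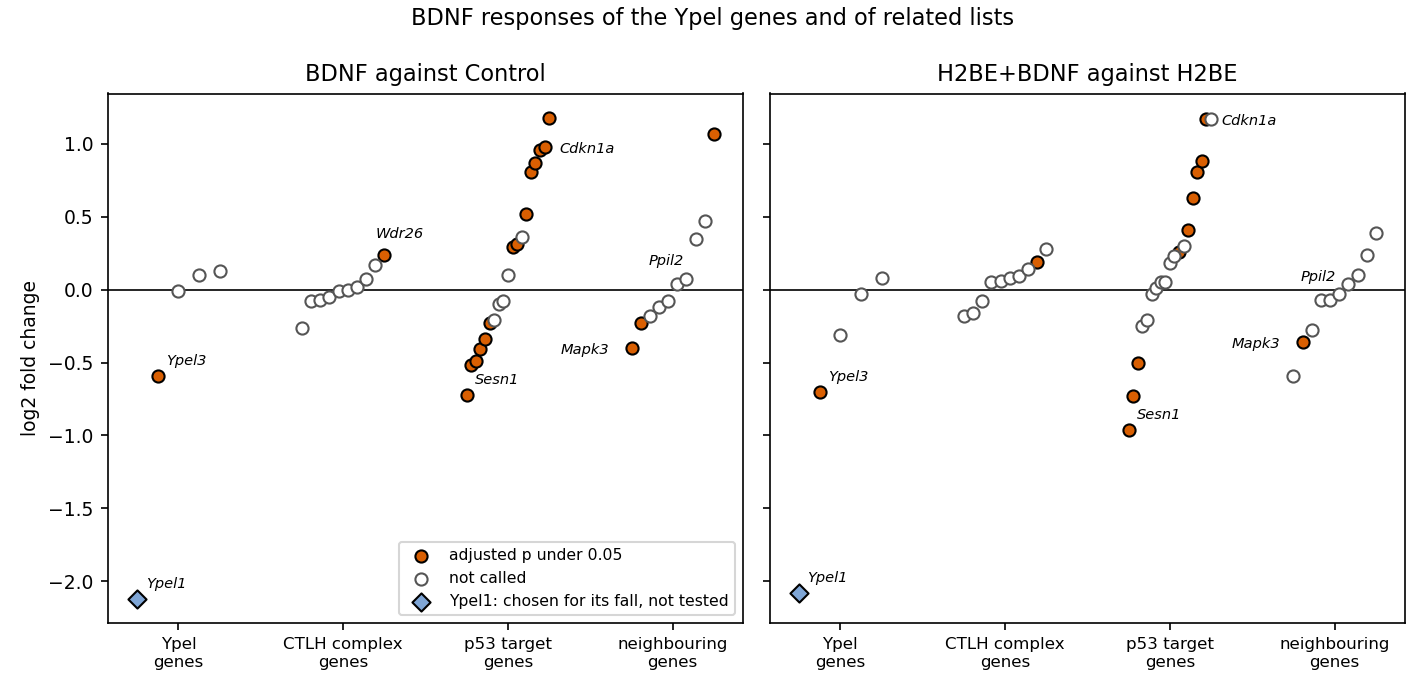
Log2 fold change (vertical axis) of the 5 Yippee-like genes, the other genes of the CTLH complex, p53 targets and neighbours of the Yippee-like genes (horizontal axis), each point 1 gene, for BDNF against Control (left) and H2BE+BDNF against H2BE (right). Filled circles passed an adjusted p of 0.05 and the diamond is Ypel1, which is shown without a test; CTLH genes lie near 0, and p53 targets on both sides of it.

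Markers of other cells moved with BDNF beside the fall of Ypel1 and Ypel3. The 8 progenitor markers, none at 0 counts, summed to 230 to 244 CPM in BDNF against 116 to 119 CPM in Control, and to 238 to 241 CPM in H2BE+BDNF against 106 to 108 CPM in H2BE. Most of that sum was Vim, an intermediate filament gene, at 174 ± 6.9 CPM in BDNF against 63.4 ± 5.1 CPM in Control (log2 fold change 1.47, adjusted p = 5.69e-10), while Hes5 was under 1 CPM in both groups. Of the 8 markers 5 were higher in BDNF against Control (Vim, Mki67, Top2a, Nes and Sox2), beside 31.4% of all genes called in either direction. The 1 that was lower was Eomes, a marker of intermediate progenitors (-0.99, adjusted p = 0.00822). Pax6 had a log2 fold change of -0.61 (adjusted p = 0.192). The list had 3 called genes with DESeq2, 2 without Control replicate 1 and 3 without Control replicate 2, and the call of Eomes was lost without BDNF replicate 2 or Control replicate 2. Under the H2BE virus 2 of the 8 were higher with BDNF, Vim and Mki67, and 0 were lower, beside 25.8% of all genes called. The call of Mki67 was lost without any 1 of the H2BE or H2BE+BDNF libraries. The 7 oligodendrocyte markers summed to 73.7 to 80.0 CPM in BDNF against 40.3 to 43.2 CPM in Control, and to 81.2 to 85 CPM in H2BE+BDNF against 43.9 to 48.6 CPM in H2BE. Mbp, a myelin gene, stood at 51.8 ± 1.0 CPM in BDNF and 19.8 ± 0.0022 CPM in Control, and Sox10, which defines that lineage, was under 1 CPM in every group. The 7 microglial markers summed to 21.9 to 23.7 CPM in BDNF against 9.04 to 9.79 CPM in Control, and to 22.3 to 23.1 CPM in H2BE+BDNF against 5.34 to 6.75 CPM in H2BE. Most of the microglial sum was the lysosomal gene Cd68, and the defining markers Cx3cr1, P2ry12 and Tmem119 were under 1 CPM in every group.

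Astrocyte markers summed to 66.4 to 106 CPM in BDNF against 68.7 to 80.4 CPM in Control, and to 60.2 to 62.3 CPM in H2BE+BDNF against 68.2 to 73.9 CPM in H2BE. Markers of excitatory neurons summed to 522 to 532 CPM in BDNF against 590 to 602 CPM in Control, and to 562 to 602 CPM in H2BE+BDNF against 656 to 699 CPM in H2BE. Within that list Neurod6, a transcription factor gene, fell in BDNF against Control (-0.77, adjusted p = 1.6e-06) and in H2BE+BDNF against H2BE (-0.54, adjusted p = 0.000148). Tbr1, a deep-layer marker, rose (0.26, adjusted p = 0.00789, and 0.24, adjusted p = 0.0208). The call of Tbr1 was lost without Control replicate 2 with the control virus, and with DESeq2 or without replicate 2 of H2BE or H2BE+BDNF with the H2BE virus. Interneuron markers summed to 1440 to 1600 CPM in BDNF against 1360 to 1370 CPM in Control. Of 4 tested, 1 was called, Gad2, a GABA-synthesis gene that rose (0.44, adjusted p = 0.000126), beside 31.4% of all genes. Log2 fold changes were 0.07 for Gad1, -0.11 for Slc32a1 and -0.13 for Dlx1, which were not called. The interneuron sum was 1270 CPM in both H2BE+BDNF samples against 1250 to 1300 CPM in H2BE. There Slc32a1 fell (-0.32, adjusted p = 0.00399) and Gad2 rose (0.21, adjusted p = 0.0365). The call of Gad2 was lost under 7 of 17 alternatives, DESeq2 and the loss of any 1 fitted library of the Control, H2BE or H2BE+BDNF groups. Gad1 (-0.04) and Dlx1 (-0.09) were not called, and 25.8% of all genes were. Mural and fibroblast markers summed to 45.5 to 53 CPM in BDNF against 57.0 to 63.6 CPM in Control, and to 53.4 to 56.0 CPM in H2BE+BDNF against 57.9 to 71.4 CPM in H2BE. In that list Dcn, a matrix proteoglycan gene, fell to 7.04 ± 0.70 CPM in BDNF, against 19.3 ± 0.067 CPM in Control (-1.45, adjusted p = 1.4e-06), and to 12 ± 0.39 CPM in H2BE+BDNF, against 22.9 ± 1.4 CPM in H2BE (-0.94, adjusted p = 0.00019). Rgs5, of the same list, rose in H2BE+BDNF against H2BE (0.49, adjusted p = 0.011), and its log2 fold change was 0.10 in BDNF against Control. Among neuronal markers Rbfox3 (-0.59, adjusted p = 1.19e-05) and Tubb3 (-0.47, adjusted p = 2.38e-06) fell in BDNF against Control and Map2 rose (0.55, adjusted p = 1.13e-07). Snap25, of the same list, was not called (-0.01, adjusted p = 0.858), and 31.4% of all genes were. The higher sum of these 4 markers with BDNF came from Map2, at 2640 ± 46 CPM in BDNF against 1740 ± 59 CPM in Control. The part of any of these markers in the levels of Ypel1 and Ypel3 was not tested.

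The genes whose log2 CPM followed each member most closely over the 8 distinct libraries were read by Pearson's r among 10447 genes, as a description, since the libraries share their groups. Ypel1 was most like Amph (0.998), Olfm2 (0.9964) and Pacsin3 (0.9956). Of these Pacsin3 came near its size of response, at 5.14 ± 0.91 CPM in BDNF against 27.8 ± 2.9 CPM in Control (log2 fold change -2.42) and 5.96 ± 0.33 CPM in H2BE+BDNF against 27.1 ± 2.6 CPM in H2BE (-2.20). Amph had log2 fold changes of -0.50 and -0.49 and Olfm2 of -0.83 and -0.87, so their likeness lay in pattern and not in size. Ypel3 was most like Pnkd (0.991), Nacc2 (0.9875) and Rdx (0.9811). Ypel2 was most like Ralgapb (0.9254), Ldlrad3 (0.9148) and Rnf150 (0.9105). Ypel4 was most like Exoc7 (0.9655), Mob1b (0.9326) and Opa1 (0.9104). Ypel5 was most like Idh3g (0.972), Pafah1b2 (0.9626) and Sec61a2 (0.9359). The log2 fold changes of these 9 genes lay between -0.19 and 0.21 in both BDNF comparisons. Between members, Ypel1 and Ypel3 had an r of 0.874, and the other 9 pairs ran from -0.425 to 0.513.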

How the data were processed

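The authors deposited raw counts of reads per Ensembl gene for 10 libraries, and a second table of signal values, normalized counts. Tested on the file, the normalized values are the deposited raw counts divided by 1 size factor per library (largest relative departure 4.44e-16), so each test took the raw table, and the normalized one supplied symbols. Per the submitters' processing notes, mm10, SAMtools, DESeq2 and deepTools were used. Which aligner, counting tool and annotation release produced the counts is not given in the sources used here. Per the labels' protocols the libraries were made with the NEBNext Ultra II RNA kit.

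Control and BDNF libraries 3, subsets of libraries 1, were left out of the tests. For mean ± SD, the CPM of libraries 1 and 3 were averaged as 1 sample, which gave n = 2 per group. Totals ran from 5058074 to 14142545 counts, which set the precision. The edgeR function filterByExpr (minimum count 10, minimum total 15) kept 13452 genes with 99.8% of counts. edgeR 4.0.16 (limma 3.58.1, R 4.3.3) fitted 1 model to the 8 libraries of all 4 groups, with TMM scaling, and its quasi-likelihood F test was adjusted by Benjamini-Hochberg over all genes, with a threshold of 0.05. The fit was tested on simulated data. Gene lengths and coordinates are from GENCODE M21, and log2 CPM used a prior count of 2. All 5 members had a promoter window in the RefSeq table.

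Members and gene lists were chosen with earlier results of these data known. Named are the 5 members, up to 4 genes per list with the smallest p in a comparison, the nearest tested genes on each side of a member with any gene that overlaps it, the 3 genes of at least 5 CPM most correlated with a member, and Arc, Vgf and H2bc21. One neighbouring gene is not reported here. Alternatives were DESeq2 1.42.0, RLE size factors, no filter, all 10 libraries, replicates 2 and 3 alone, each library left out, only the groups compared, a replicate block, a correction for gene length (lowess, span 0.3), the longest transcript as gene length, and, added after seeing the data, a crossed replicate block.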

Additional observations from a re-analysis of the deposited data

How the results depend on the processing

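Ypel3 passed the test in both BDNF comparisons, and no member passed it in the other 3 comparisons, under every alternative that was run. Without 1 library the log2 fold change of Ypel3 ran from -0.69 to -0.46 in BDNF against Control and from -0.87 to -0.57 in H2BE+BDNF against H2BE. That of Ypel1, which has no test there, ran from -2.25 to -2.0 and from -2.17 to -1.96.

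Counts of all genes called moved by more than 1.5 times under several settings, and the cause was not tested. In BDNF against Control (4225 genes) DESeq2 called 2672, all 10 libraries as replicates gave 6465, and leaving out 1 library gave 2278 (without Control replicate 1) to 4499. In H2BE+BDNF against H2BE (3466) leaving out 1 library gave 1818 (without H2BE replicate 2) to 4157, and 2244 without H2BE+BDNF replicate 2. In H2BE against Control (287) no filter gave 559, all 10 libraries 1611, only the 2 groups 1130, the length correction 19, and leaving out 1 library 2 to 890. In H2BE+BDNF against BDNF (3) DESeq2 gave 10, no filter 216, all 10 libraries 24, replicates 2 and 3 alone 1, only the 2 groups 1, and leaving out 1 library 1 to 764. For the difference of responses (155) no filter gave 440, all 10 libraries 1169, replicates 2 and 3 alone 349, the length correction 3, and leaving out 1 library 0 to 897.

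Log2 fold changes near 0 that did not pass the test changed sign. With the length correction Ypel5 was at 0.03 in BDNF against Control and Ypel2 at 0.00 in H2BE+BDNF against H2BE. In H2BE+BDNF against BDNF Ypel2 was at -0.01 without a filter, -0.02 with all 10 libraries and -0.06 with replicates 2 and 3 alone. Without 1 library the range was -0.06 to 0.29 for Ypel4 and -0.15 to 0.12 for Ypel5 in BDNF against Control, and -0.06 to 0.01 for Ypel2 and -0.07 to 0.21 for Ypel5 in H2BE+BDNF against H2BE. It was -0.07 to 0.24 for Ypel4 and -0.20 to 0.09 for Ypel5 in H2BE against Control, and -0.08 to 0.08 for Ypel2 and -0.11 to 0.16 for Ypel5 in H2BE+BDNF against BDNF. For the difference of responses it was -0.08 to 0.17 for Ypel1, -0.28 to 0.02 for Ypel3 and -0.06 to 0.23 for Ypel5.

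Samples with the same replicate number did not deviate together (r of -0.17 for BDNF and Control, -0.299 for H2BE+BDNF and H2BE, -0.257 for H2BE and Control, -0.195 for H2BE+BDNF and BDNF), so they share a number and are not treated as pairs. With the replicate block 140 genes were called in H2BE against Control, 119 in H2BE+BDNF against BDNF and 245 for the difference of responses. With that block Ypel2 was at -0.08 and Ypel5 at -0.13 in H2BE+BDNF against BDNF. A crossed block, added after seeing the data, called 4886 genes in BDNF against Control, 3813 in H2BE+BDNF against H2BE and 0 for the difference of responses. Fits to only the groups compared give no difference of responses.

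Other values, those of lists, named genes outside the family and levels per kb, moved or lost or gained a call in 249 cases of 2462 alternative values computed. Depth limits Ypel4 most, with 43 reads in its shallowest library.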

Other observations

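Proteins outside the family that share a Yippee-type zinc-binding fold were also read. The 6 genes were Mis18a and Oip5, which act at centromeres, Crbn, the substrate receptor that binds thalidomide, and the methionine sulfoxide reductases Msrb1, Msrb2 and Msrb3, all tested. In BDNF against Control 1 was lower, Oip5, at 0.951 ± 0.044 CPM in BDNF against 2.04 ± 0.43 CPM in Control (log2 fold change -1.16, adjusted p = 0.0363, edgeR), beside 31.4% of all genes called. That call was lost under 13 of 17 alternatives, among them DESeq2 and the loss of any 1 of the 8 libraries. Oip5 averaged 0.706 ± 0.18 CPM in H2BE+BDNF against 0.817 ± 0.037 CPM in H2BE (-0.20, adjusted p = 0.854). Their median log2 fold change was -0.07 in BDNF against Control and 0.00 in H2BE+BDNF against H2BE. Crbn, the most abundant of them, averaged 54.0 ± 3.7 CPM in BDNF and 56.0 ± 1.9 CPM in Control.

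The third libraries, which were not counted as samples of their own, held 85 reads of Ypel1 in BDNF and 512 in Control, at 11.9 CPM and 48.3 CPM. Ypel3 had 249 and 699 reads there. Vgf, a BDNF-induced neuropeptide gene used as a check of the treatment, averaged 1580 ± 4.0 CPM in BDNF against 703 ± 19 CPM in Control, and 1440 ± 28 CPM in H2BE+BDNF against 628 ± 4.6 CPM in H2BE.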
